A study of Drosophila melanogaster with 4 samples.

Results

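The genes described are 10 heat shock and chaperone genes of Drosophila melanogaster: Hsp70Bbb, Hsp70Ba, Hsp68, Hsp26, Hsp27, l(2)efl, stv, DnaJ-1, Hsp60A and the heat shock factor gene Hsf. They were taken by symbol from the platform's probe-to-gene table, and each had 1 row of its own among 13402 genes tested. Of the 10, 8 are known to be induced by heat and other stress, and Hsp60A and Hsf were set apart as constitutive. Fat bodies, the larval organ of storage and secretion, were dissected from w1118 larvae, a white-eyed laboratory strain. Larvae had fed for 5 days, from the egg on, either on a semi-purified diet that also held palm fruit juice (PFJ), a phenolic-rich plant extract, or on that diet alone (control). The labels give the PFJ as 4 ml, as 19000 mg gallic acid equivalents (GAE) per kg of diet and as 0.86 mg GAE per kcal, which were not reconciled here. Each group had 2 single-colour Affymetrix arrays. The RNA on an array came from a pool of 10 larvae, whose sexes the labels do not give. Values are RMA log2 intensities, in which 1 unit is a doubling.

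Heat shock proteins hold unfolded proteins in solution and help them refold. When proteins unfold, Hsf, the fly's only heat shock factor, forms trimers that bind heat shock elements in the promoters of Hsp70, Hsp68 and the small heat shock genes. Its activation is known to work mainly through the existing protein and not through more Hsf mRNA. Hsp70 proteins bind exposed hydrophobic stretches in cycles of ATP use, J-domain proteins such as DnaJ-1 deliver clients to them, and BAG proteins such as starvin release the nucleotide. Small heat shock proteins hold clients without ATP, and the chaperonin Hsp60 folds proteins inside mitochondria. In fly larvae the small heat shock genes are also expressed without stress, under developmental control.

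The members split into 2 patterns. The Hsp70-family genes Hsp70Bbb, Hsp70Ba and Hsp68 read 2.15 to 2.82 log2 units higher with PFJ, the small heat shock genes Hsp26 and l(2)efl and the co-chaperone gene stv read 0.62 to 0.89 higher, and in these 6 genes every PFJ array exceeded every control array. In Hsp27, DnaJ-1, Hsp60A and Hsf the groups overlapped, with differences between -0.21 and 0.09. Of all genes tested, 15.5% had their PFJ arrays wholly above the controls and 13.1% wholly below. No member passed limma's test after Benjamini-Hochberg adjustment over the 13402 genes, where the adjusted p was 1 for every one of the 10, and 0% of all genes passed. At an unadjusted p under 0.05, 5 of the 8 inducible genes were higher and 0 were lower, and neither constitutive gene was in either count, against 1.74% of all genes higher and 1.04% lower. The members were chosen with such differences known, so these counts describe them and are no independent evidence. With 2 arrays against 2, the smallest two-sided p of an exact permutation test is 0.333.

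**Figure D1:**
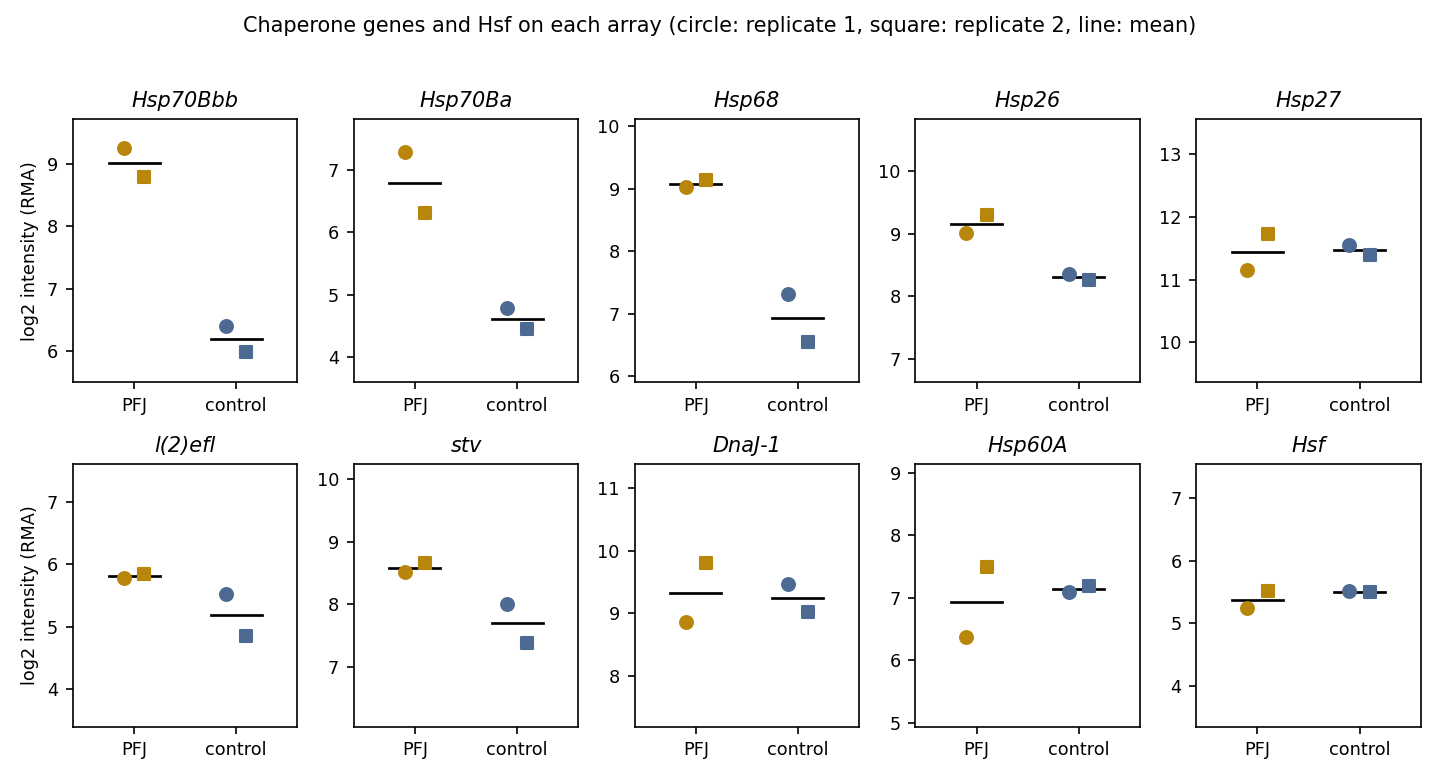
Log2 RMA intensity (vertical axis, each panel spanning the same number of log2 units) of the 10 genes on the PFJ arrays (left) and the control arrays (right), with circles for replicate 1, squares for replicate 2 and lines for group means. The PFJ points lie above the control points in Hsp70Bbb, Hsp70Ba, Hsp68, Hsp26, l(2)efl and stv, and the points overlap in Hsp27, DnaJ-1, Hsp60A and Hsf.

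Hsp70Bbb, one of the nearly identical copies of the main heat-inducible Hsp70, read 9.26 and 8.78 in PFJ replicates 1 and 2, against 6.41 and 5.99 in control replicates 1 and 2. The lowest PFJ array was 2.37 log2 units above the highest control array, several times the distance between arrays of 1 group (0.47 with PFJ, 0.42 in controls). The means were 9.02 ± 0.33 with PFJ and 6.20 ± 0.30 in controls (SD, n = 2 each), a difference of 2.82 (SE 0.27), or 7.07-fold. Its unadjusted limma p of 0.000485 was the 3rd smallest of the 13402 genes and its difference the 5th largest.

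Hsp70Ba, another copy of the same gene, read 7.28 and 6.30 with PFJ, against 4.79 and 4.45 in controls. The groups were 1.52 log2 units apart at their closest, and the PFJ arrays were 0.97 apart from each other. The difference of 2.17 (SE 0.40), a 4.51-fold one, had a 95% interval of 1.08 to 3.27. Hsp70Ba and Hsp70Bbb stand close together in the RefSeq gene order (Release 6 plus ISO1 MT), within 3 genes of each other. Because Hsp70 copies are so alike, RNA of one copy may bind probes of another, and the separate values of these genes are uncertain.

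Hsp68, a stress-inducible member of the Hsp70 family that lies apart from those copies, read 9.03 and 9.14 with PFJ, against 7.32 and 6.55 in controls. The PFJ arrays were 0.11 apart and the control arrays 0.77, and the closest arrays of different groups were 1.71 apart. The means of 9.08 ± 0.08 with PFJ and 6.94 ± 0.54 in controls (SD, n = 2 each) gave a difference of 2.15 (SE 0.32), or 4.43-fold, with an unadjusted limma p of 0.00241. Hsp70Bbb had the largest difference of the 3, and the 95% intervals of all 3 overlapped (2.07 to 3.58 for Hsp70Bbb, 1.27 to 3.02 for Hsp68).

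By the distance between the 4 values of each gene after centring, the gene closest in pattern to Hsp70Bbb was Hsp70Ba, at 0.74 log2 units over 4 arrays. Hsp68 was the 3rd closest, at 0.83. The other 3 of the closest 5 were CG34244 at 0.79, CG16704 at 0.95 and the antifungal peptide gene Drsl5 at 0.98. Among the remaining members the closest was stv, at rank 103, and Hsp60A was the farthest, at rank 11641. Values were centred but not scaled, so the distance also depends on how large a gene's difference is. The 4 arrays also allow few distinct patterns, and closeness on this measure is a description only.

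The small heat shock genes did not read alike. Hsp26 read 9.00 and 9.30 with PFJ, against 8.35 and 8.25 in controls, with group means of 9.15 ± 0.21 and 8.30 ± 0.07 (SD, n = 2 each). Its arrays were separate by 0.66, more than the distance within either group (0.29 with PFJ, 0.09 in controls), and its difference was 0.85 (SE 0.19, unadjusted limma p 0.0109), or 1.80-fold.

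Hsp27, which encodes a small heat shock protein found mainly in the nucleus, read 11.16 and 11.73 with PFJ, against 11.55 and 11.40 in controls. Both control values lay between the PFJ values. The difference was -0.03 (SE 0.26), and its 95% interval of -0.75 to 0.70 leaves room for a change of either sign. Its sign turned to 0.03 when quantile normalisation was repeated.

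Hsp26 and Hsp27 belong to 1 gene cluster. In the RefSeq gene order Hsp26 stands next to CG4461 and Hsp67Ba, and Hsp27 stands next to Hsp23. Of that cluster, CG4461, a further small heat shock gene, read 2.75 and 2.62 with PFJ, against 2.72 and 2.60 in controls, which is a difference of 0.02 (SE 0.17). CG4461 was dim, and it was named for its position after its values were seen. Hsp22 also lies within 3 genes of Hsp26, and the row it shares with CG4456 was separate between groups, with a difference of 1.14 (SE 0.34).

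The small heat shock gene l(2)efl, the fly relative of the alpha-crystallins, read 5.78 and 5.85 with PFJ, against 5.52 and 4.85 in controls. The closest arrays of different groups were 0.25 apart, less than the 0.67 between the 2 controls. The difference of 0.62 (SE 0.28, unadjusted limma p 0.0935) depended on control replicate 2, without which it was 0.29, and it was 0.96 without control replicate 1.

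Of the 2 co-chaperone genes, stv showed separate groups and DnaJ-1 did not. The gene stv, or starvin, encodes a BAG-domain protein that works with Hsp70 in the clearance of damaged proteins. It read 8.52 and 8.65 with PFJ, against 8.01 and 7.37 in controls. The gap between groups was 0.51 and the distance between the controls 0.64. The difference was 0.89 (SE 0.28, unadjusted limma p 0.0321), and 0.58 without control replicate 2.

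DnaJ-1 encodes a heat-inducible J-domain partner of Hsp70. It read 8.86 and 9.80 with PFJ, against 9.46 and 9.02 in controls. The PFJ arrays held both the lowest and the highest value. The difference was 0.09 (SE 0.40), with a 95% interval of -1.02 to 1.20, which reaches past 1 log2 unit on either side of 0. Without PFJ replicate 2 the difference was -0.38 and without PFJ replicate 1 it was 0.56.

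**Figure D2:**
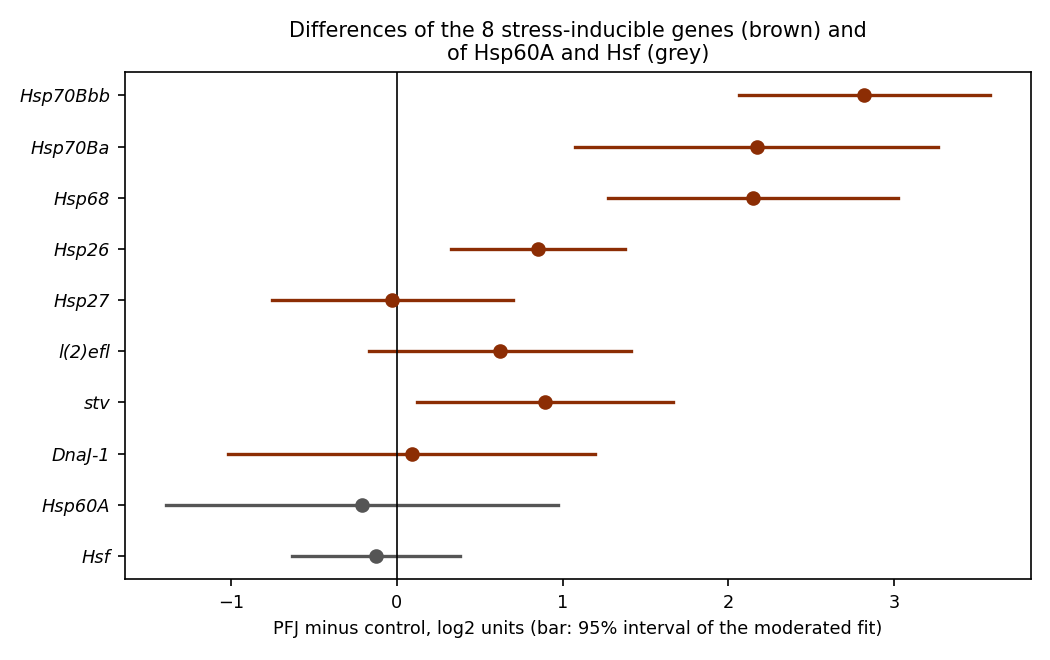
PFJ minus control difference (horizontal axis, log2 units) with its 95% interval from the moderated fit for the 8 stress-inducible genes (brown) and for Hsp60A and Hsf (grey). The intervals of Hsp70Bbb, Hsp70Ba, Hsp68, Hsp26 and stv lie above 0 before adjustment for the number of genes, and those of the other 5 genes cross 0.

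Neither constitutive gene differed beyond the spread between arrays. Hsp60A, the mitochondrial chaperonin gene, read 6.37 and 7.49 with PFJ, against 7.09 and 7.19 in controls. The PFJ arrays lay 1.12 apart, around both controls, which were 0.10 apart. The difference was -0.21 (SE 0.43), with a 95% interval of -1.39 to 0.97, and it was 0.35 without PFJ replicate 1.

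Hsf read 5.25 and 5.51 with PFJ, against 5.52 and 5.50 in controls. Of these values PFJ replicate 1 was the low one, and the others lay within the distance between the PFJ arrays. The difference was -0.13 (SE 0.18), with a 95% interval of -0.63 to 0.38, which lies within 1 log2 unit on either side of 0, before adjustment. Without PFJ replicate 1 the difference was 0.01.

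The order of the arrays differed between the 6 separate and the 4 overlapping genes. Control replicate 2 was the lowest array in all 6 separate genes, whereas PFJ replicate 1 was the lowest in all 4 overlapping ones. Where the PFJ arrays are wholly above the controls, a control array must be the lowest, and over all such genes it was control replicate 2 in 51.0%. Over all overlapping genes PFJ replicate 1 was the lowest array in 23.6%. Hsp70Bbb and Hsp70Ba were at their highest in PFJ replicate 1, the same array in which Hsp27, DnaJ-1, Hsp60A and Hsf were at their lowest. The other 4 separate genes were highest in PFJ replicate 2. In all, 8 of the 10 members read higher in PFJ replicate 2 than in PFJ replicate 1, as did 45.1% of all genes tested, and the exceptions were the Hsp70 copies.

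Control replicate 2 also stood apart over the whole array, where 118 genes read 2 log2 units or more below the lowest of the other arrays. That count was 4 and 0 on the PFJ arrays and 5 on the other control array. Pearson's r across genes, which are not independent replicates, was 0.961 between the PFJ arrays, 0.910 between the control arrays and 0.920 to 0.968 between arrays of different groups. When each of the 4 arrays was left out in turn, the difference ran from 2.59 to 3.06 for Hsp70Bbb, from 1.69 to 2.66 for Hsp70Ba, from 1.76 to 2.53 for Hsp68 and from 0.71 to 1.00 for Hsp26. The lowest value of Hsp68 was the one without control replicate 2. Without that array the difference was 2.61 for Hsp70Bbb, 2.00 for Hsp70Ba and 0.80 for Hsp26. The median difference of the 8 inducible genes was 0.87 with all arrays and 0.69 to 1.09 with 1 array left out, beside 0.01 for all genes tested.

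**Figure D3:**
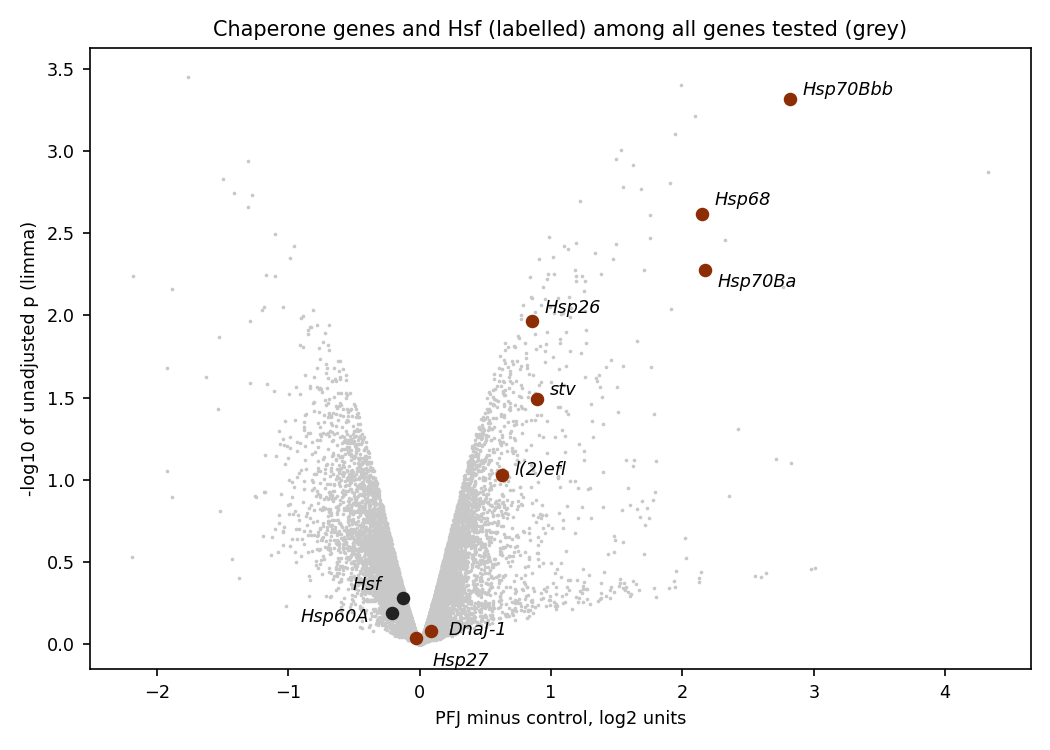
PFJ minus control difference (horizontal axis, log2 units) against -log10 of the unadjusted limma p (vertical axis) for the 13402 genes tested (grey points), with the inducible members in brown and Hsp60A and Hsf in black. Hsp70Bbb, Hsp68 and Hsp70Ba lie at the upper right edge of the cloud, at 2.82, 2.15 and 2.17, and Hsp27, DnaJ-1, Hsp60A and Hsf lie at its base.

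Tissue markers were compared because each array held a dissected organ. The fat body storage protein gene Lsp2 read 12.22 and 12.24 with PFJ, against 12.27 and 12.32 in controls. The salivary glue genes Sgs3, Sgs5, Sgs7 and Sgs8 read between 10.22 and 11.81 over the 4 arrays, so glue gene RNA was read in every pool, while ng1, another salivary gene, was dim at 2.15 to 2.45. In bulk RNA, fewer cells of a type and less RNA per cell cannot be told apart. Single markers of these lists are named here after their values were seen.

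The mean of the 9 fat body markers was separate between groups, as was that of the inducible genes. It was 9.36 and 9.50 with PFJ, against 8.93 and 8.57 in controls. Of the 9 markers, 8 had their PFJ arrays wholly above the controls, while Lsp2 had them below. Of all genes tested, 15.5% were wholly above and 13.1% wholly below. The differences ran from -0.07 in Lsp2 and 0.12 in Fbp1, a storage protein receptor, to 1.23 (SE 0.31) in the fatty acid synthase gene FASN1, 1.26 (SE 0.27) in Obp99b and 1.78 (SE 0.60) in the transferrin gene Tsf1. These last 3 genes were higher at an unadjusted limma p under 0.05, as were 1.74% of all genes. The mean of the 8 inducible genes was 8.61 and 8.69 with PFJ, against 7.68 and 7.23 in controls. The part of the fat body markers in the chaperone differences was not tested.

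Hemocyte markers were split. Of the 6, 4 had their PFJ arrays wholly above the controls, against 15.5% of all genes, and 3 were higher at an unadjusted limma p under 0.05, against 1.74%. These 3 were the prophenoloxidase genes PPO1, with a difference of 1.26 (SE 0.29), and PPO2, at 0.78 (SE 0.25), and the hemolectin gene Hml, at 0.68 (SE 0.19). The remaining separate marker was the phagocyte receptor gene eater, at 3.18 and 3.41 with PFJ, against 2.82 and 3.13 in controls. Its difference was 0.32 (SE 0.21). The phagocyte receptor genes NimC1 and crq overlapped between groups, with differences of -0.67 each, and NimC1 was dim at 2.23 to 3.59. The mean of the list was 4.35 and 4.79 with PFJ, against 4.04 and 4.54 in controls.

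The brightest testis markers set control replicate 2 apart, the array with the lowest value in all 6 separate chaperone genes. The sperm chromatin gene Mst77F read 8.51 and 7.70 with PFJ, against 9.13 and 3.21 in controls, and Mst84Dc read 6.97 and 5.05 with PFJ, against 7.24 and 3.36 in controls. Control replicate 2 was the lowest array in both. The other 4 testis genes read between 1.94 and 4.14, and the list averaged 4.67 and 3.95 with PFJ, against 4.94 and 2.76 in controls. The germline gene vas was dim on every array, at 2.24 to 2.57, and was highest in control replicate 2. The part of the testis markers in the chaperone differences was not tested. All 6 separate chaperone genes had smaller differences without control replicate 2, from 0.29 in l(2)efl to 2.61 in Hsp70Bbb. Leaving out their lowest control array must have this effect.

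The means of the remaining lists overlapped between groups. They were 9.05 and 8.95 with PFJ against 8.85 and 9.25 in controls for 6 salivary gland genes, and 5.54 and 6.37 against 4.75 and 5.96 for 7 midgut genes. Of the midgut genes, the mannosidase gene LManV was separate, at 4.97 and 7.37 with PFJ, against 3.87 and 3.62 in controls. The other 6 overlapped between groups, with differences from -0.28 in Jon65Aiv to 0.75 in Amy-p. Jon65Aiv was bright in every pool, at 10.8 and 10.9 with PFJ, against 10.6 and 11.6 in controls. These genes are named after their values were seen. The 2 muscle genes measured averaged 7.77 and 8.75 with PFJ, against 7.97 and 6.54 in controls. The part of these lists in the chaperone values was not tested.

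**Figure D4:**
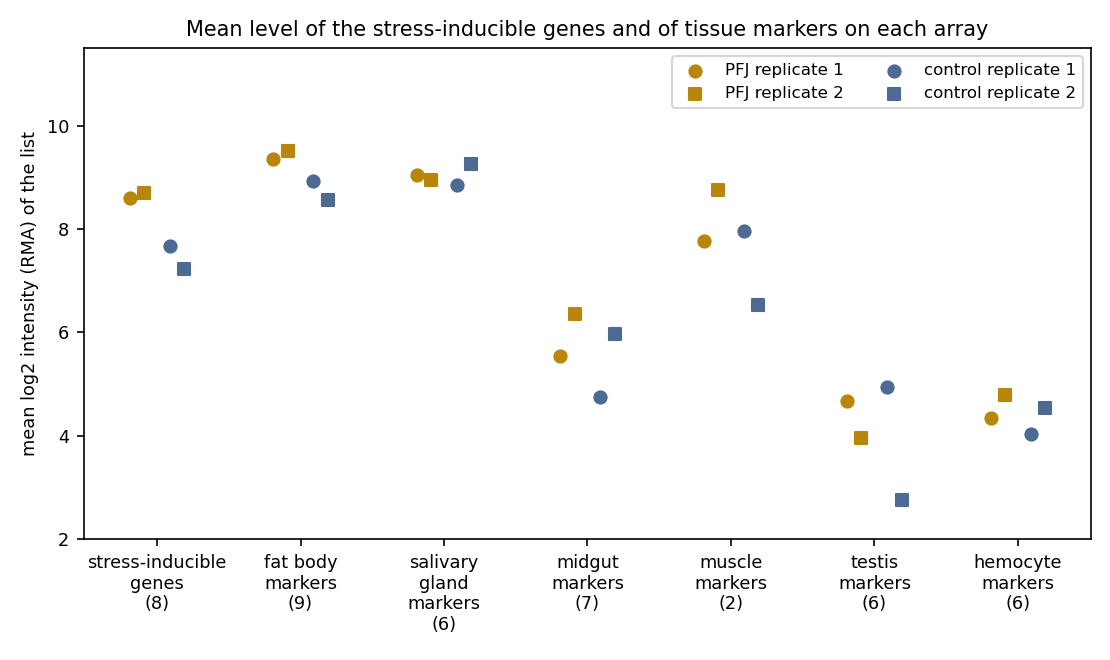
Mean log2 RMA intensity (vertical axis) of the 8 stress-inducible genes and of each list of tissue markers, with the number of genes measured in brackets, on the PFJ arrays (left in each pair) and the control arrays (right); circles are replicate 1 and squares replicate 2. The list means of the 2 groups are separate for the inducible genes and the fat body markers and overlap for the other 5 lists.

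The wider chaperone network was read from lists chosen by role, without a test against the Hsp70 genes. Over 5 further lists with 64 measured genes, 0 genes passed an unadjusted limma p of 0.05 in either direction, where 2.78% of all genes did, a share that would itself give few calls among 64 genes. Of the alternatives that kept all 4 arrays, only the one with the replicate number as a block gave a call, 1 gene (CCT7, lower). Rows shared by several genes are not in this count. The constitutive Hsp70 cognates and their exchange factors had a median difference of 0.02 over 8 genes, 4 positive and 4 negative, where 51.9% of all genes tested were positive. Hsc70-4, the abundant cytosolic cognate, read 6.82 and 6.90 with PFJ, against 6.83 and 6.92 in controls, a difference of -0.02 (SE 0.16) with a 95% interval of -0.47 to 0.43. It was named after its values were seen, as the constitutive counterpart of Hsp70.

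The cognate genes with the smallest p were Hsc70-3, Hsc70-5, Hsc70-1 and Hsc70-2. Hsc70-3, the BiP of the endoplasmic reticulum, read 7.59 and 7.67 with PFJ, against 7.19 and 7.36 in controls, a difference of 0.35 (SE 0.17). Hsc70-5, the mitochondrial Hsp70, had a difference of -0.26 (SE 0.19), with both PFJ arrays below both control arrays. Hsc70-1 and Hsc70-2 overlapped between groups, at 0.27 (SE 0.24) and 0.45 (SE 0.61). Of 10 other small heat shock genes listed, 5 had a row of their own, and Hsp22 and Hsp23 are not among these. The 5 measured genes had a median of 0.14, from -0.17 in CG13133 to 0.31 in CG7409, with CG43851 at 0.23 and CG4456 at 0.14. Of these 5 genes, 4 were dim, with a mean level under the lower quartile of all genes (2.90), and the filter at that quartile left CG13133 alone, at -0.17.

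Among the co-chaperones, the Hsp90 machinery had a median of -0.05 over 9 measured genes of 10 listed, with 4 positive and 5 negative differences. The Hsp90 gene Hsp83 is not among the 9, so its level is not described here. Of the 9, 3 had their PFJ arrays wholly below the controls and 1 wholly above, against 13.1% and 15.5% of all genes. The kinase-targeting co-chaperone gene Cdc37 had a difference of -0.27 (SE 0.20), nudC -0.44 (SE 0.21), CG1416 -0.28 (SE 0.22) and the immunophilin gene Fkbp59 0.15 (SE 0.18). The 29 J-domain genes other than DnaJ-1 had a median of -0.03, with 12 positive and 17 negative differences. Of the 29, 4 had their PFJ arrays wholly below the controls, a share near the 13.1% of all genes that did. These 4 were also the ones with the smallest p, a choice that favours separate groups. They were CG10375 at -0.58 (SE 0.21), CG14650 at -0.41 (SE 0.24), CG5001 at -0.29 (SE 0.21) and Csp, the cysteine string protein of synaptic vesicles, at -0.32 (SE 0.20).

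The chaperonin list had the lowest median, -0.44 over 13 genes, of which 2 were positive and 11 negative. All 8 genes for CCT subunits, which form the cytosolic chaperonin that folds actin and tubulin, had negative differences, from -0.99 to -0.25, and 4 of the 8 had their PFJ arrays wholly below the controls, as had 13.1% of all genes. CCT4 read 7.12 and 8.66 with PFJ, against 8.69 and 9.06 in controls. Its difference of -0.99 (SE 0.58) rested on PFJ replicate 1, as it was -0.22 without that array and -1.76 without PFJ replicate 2. CCT2 read 7.93 and 8.05 with PFJ, against 8.28 and 8.61 in controls, a difference of -0.46 (SE 0.20). CCT6 and CCT7 had differences of -0.48 (SE 0.25) and -0.72 (SE 0.40). PFJ replicate 1 was the lowest array in 7 of the 8 CCT genes, against 24.8% of all genes tested. Control replicate 2 was the highest in all 8, against 30.4% of all genes. Over all genes with PFJ wholly below the controls, these shares were 60.4% and 64.7%. The CCT genes were set apart from the other chaperonins after their values were seen.

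The remaining 5 chaperonin-list genes had a median of -0.01. CG11267, for the Hsp10 partner of Hsp60, read 7.80 and 8.37 with PFJ, against 8.13 and 8.06 in controls, with PFJ replicate 1 the lowest and PFJ replicate 2 the highest, as in Hsp60A. Hsp60B, needed in sperm development, read 4.43 and 3.76 with PFJ, against 5.54 and 2.40 in controls. That is the array order of the testis markers Mst77F, Mst84Dc, Mst87F and dj, but not of bam and vas. CG11267 and Hsp60B were named after their values were seen, and the part of testis RNA in the Hsp60B values was not tested.

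**Figure D5:**
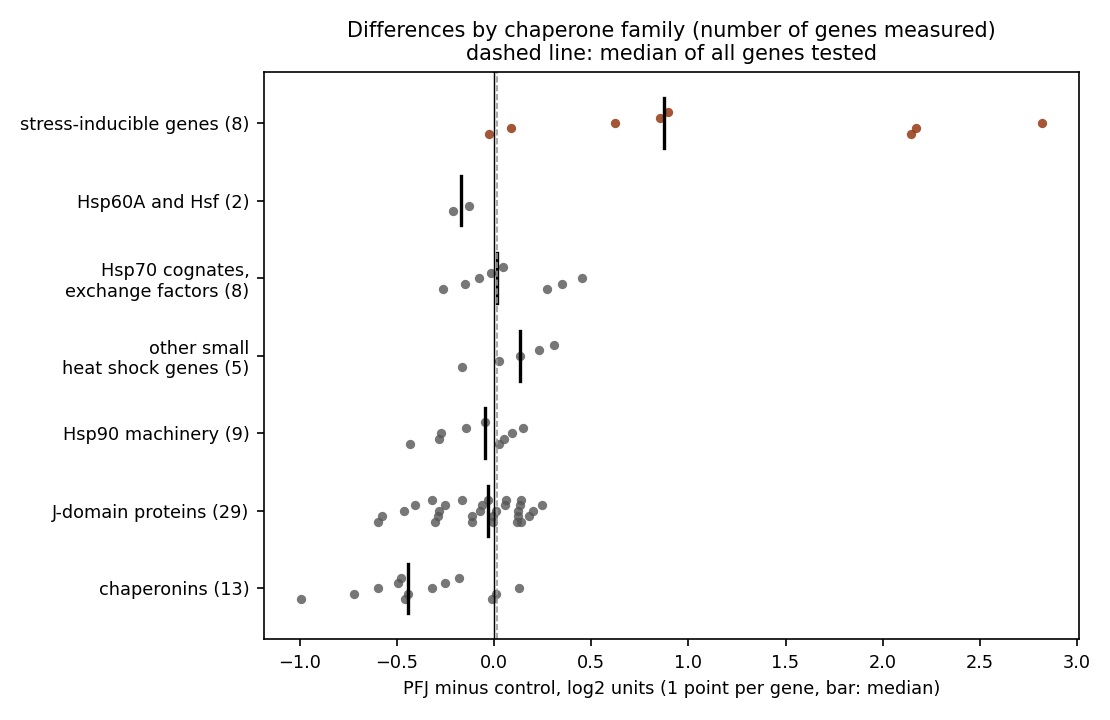
PFJ minus control differences (horizontal axis, log2 units) of each measured gene (points) by chaperone family, with family medians (bars), the number of genes measured in brackets and the median of all genes tested (dashed line). The stress-inducible genes spread from -0.03 to 2.82 around a median of 0.87, while the measured genes of the other families lie between -0.99 and 0.45. Genes without a row of their own are not shown, and of the 10 other small heat shock genes listed only 5 had one.

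A noncoding heat shock transcript was also read. The RNA lncRNA:Hsromega, which collects RNA-binding proteins in the nucleus during heat shock, was added after its values were seen. It read 11.32 and 10.95 with PFJ, against 10.47 and 10.51 in controls, so the groups were separate by 0.43. Its difference was 0.64 (SE 0.21, unadjusted limma p 0.0354), 1.56-fold, and it did not pass adjustment (adjusted p 1).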

How the data were processed

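The values the authors deposited are log2 intensities of transcript clusters, made with RMA in Affymetrix Expression Console 1.4.0.38, per the submitters' processing notes. RMA corrects background, equalises the arrays' distributions and summarises probes, which hides any shift common to most genes. The deposited values were not fully level. Their median over the genes tested was 4.02 and 3.95 on PFJ replicates 1 and 2, against 4.02 and 3.86 on control replicates 1 and 2. With each array centred on its median, the median difference of the inducible genes was 0.83, against 0.87 as reported. The range of the values (1.36 to 12.7) gave the scale as log2. The genome build is not given in the sources used here. Of 16322 rows, 13441 had 1 gene symbol, 555 several and 2326 none in the platform table. Where a gene had several rows (37 genes), its brightest row on average was kept, which left 13402 genes. Listed names were brought to current symbols through RefSeq's gene table.

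PFJ was compared with control in R 4.3.3 with limma 3.58.1 (lmFit and eBayes, two-sided, no covariate), with Benjamini-Hochberg adjustment over 13402 genes and a threshold of 0.05. SEs are moderated, with 4.01 degrees of freedom. The procedure was tested on simulated data. The members and lists were chosen with earlier results of these data known, and lists are described by counts and medians without a test. All 10 members are named, and up to 4 genes per further list, by smallest unadjusted p. The closest 5 genes to Hsp70Bbb were taken by Euclidean distance of centred values. The labels describe each replicate as a pool of 10 larvae and do not say how the pools were raised, so p-values measure the spread between these pools. Alternatives were repeated quantile normalisation, median centring, 2 filters on dim genes, averaged rows, all rows, an intensity trend, a replicate block and leaving out each array. The number of arrays limits the precision, and probe-level signal over background was not analysed here.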

Additional observations from a re-analysis of the deposited data

Results flagged for a closer look

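Rows shared by several gene symbols stayed out of the comparison, and 10 of them held at least 1 gene of the chaperone lists. Of these, 6 read higher on every PFJ array than on any control array, which is why they are given here. Of the genes with a row of their own, 15.5% did. Of the 6, 3 are assigned to Hsp70 copies alone. The 6 are not independent, as 2 hold identical values and the Hsp70 rows name some of the same copies. The row assigned jointly to 4 copies (Hsp70Aa, Hsp70Ab, Hsp70Bb and Hsp70Bc) read 9.99 and 9.89 with PFJ, against 7.98 and 7.36 in controls, a log2 difference of 2.27 (SE 0.27). Of the 2 rows assigned jointly to Hsp70Bb and Hsp70Bc, one read 9.83 and 9.40 with PFJ, against 7.15 and 5.77 in controls, a difference of 3.15 (SE 0.54). The other was dim, at 3.74 and 3.54 with PFJ, against 2.19 and 1.83 in controls, with a difference of 1.63 (SE 0.21). None of these values can be assigned to 1 copy, and the rows may share RNA with those of Hsp70Bbb and Hsp70Ba.

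The row assigned jointly to the small heat shock gene Hsp22 and its neighbour CG4456 read 5.10 and 4.87 with PFJ, against 4.25 and 3.44 in controls, a difference of 1.14 (SE 0.34). CG4456 has a row of its own, with a difference of 0.14 (SE 0.24). A pair of rows with identical values, assigned jointly to the J-domain gene DnaJ-60 and CG42568, read 5.62 and 5.31 with PFJ, against 5.15 and 5.18 in controls, a difference of 0.29 (SE 0.19) in each. In a limma fit of all 16322 rows none of the 6 passed adjustment, with an adjusted p of 1 each.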

How the results depend on the processing

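Of the 12 alternatives, 8 kept all 4 arrays. In these 8, 0 genes passed limma's adjusted test, while 192 to 547 genes had an unadjusted limma p under 0.05, against 373 in the fit as reported. The counts are of unlike totals, as the 192 is among genes above the median level only. Hsp70Bbb, Hsp70Ba, Hsp68, Hsp26, stv and l(2)efl kept a positive difference in all 12, with lowest adjusted p-values between 0.328 and 0.676. The other 4 members changed sign in some. Hsp27 turned to 0.03 with quantile normalisation repeated. With 1 array left out, where the lone array of a group is assumed to vary like the others, Hsp27 ran from -0.32 to 0.26, DnaJ-1 from -0.38 to 0.56, Hsp60A from -0.77 to 0.35 and Hsf from -0.26 to 0.01. Of the other named genes, Hsc70-2 ran from -0.29 to 1.20, CG43851 from -0.08 to 0.54, CG13133 from -0.48 to 0.14 and CG4456 from -0.08 to 0.35. The cause was not tested. In each of the 8 alternatives with all 4 arrays, 5 inducible genes had an unadjusted limma p under 0.05, among the 192 to 547 genes given above. Without PFJ replicate 1 all 8 inducible genes had the PFJ array above both controls, against 6 otherwise. A lone array meets this more easily, and the share of all genes that did is not given here. The median of the chaperonins was -0.23 without control replicate 2 and -0.22 without PFJ replicate 1.

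With the replicate number as a block, 0 genes passed, 547 had an unadjusted p under 0.05, and the median of the inducible genes stayed at 0.87. The labels do not say that a number marks a shared batch. The replicate differences of the 2 groups correlated across genes at 0.34, so the block is given only here.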
